A study of Mus musculus with 10 samples.

Results

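The 10 genes described here are the neutrophil granule and neutrophil marker genes S100a8, S100a9, Retnlg, Ly6g, Lcn2, Camp, Ngp, Elane and Mpo together with Slpi, in 10 untreated WEHI-164 mouse tumors. They were taken by symbol from a table of 35958 features, in which all 10 were found. They were chosen by how they stood in responders against non-responders in these same tumors, so their differences between the groups are given as a description. Members with enough counts were part of the test of all features, but no p is given for them. Values over all 10 tumors, correlations between members included, carry that difference too, and deviations from the group means do not.

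WEHI-164 is a fibrosarcoma line of BALB/c mice, here grown under the skin of adult female wild-type BALB/c mice. Most of each tumor was cut away, the removed piece was sequenced as polyA RNA, and a hydrogel releasing poly(I:C), a double-stranded RNA mimic, was then laid on what remained. Responders (RS, tumors 5, 9, 10, 11 and 12) later regressed completely, and non-responders (NR, tumors 1, 2, 3, 6 and 7) grew without delay, so that all 10 pieces were untreated when taken and the groups are set by what followed. All tumors derive from 1 cell line, and the piece sequenced is not the residue that met the gel. The labels name no batch. Of the responders, 4 carry numbers above every non-responder, so the order of the numbers and the response cannot be told apart outside tumor 5. The responder libraries held between 16002949 and 31160790 estimated counts and the non-responder libraries between 19863863 and 28276142. Levels are given as CPM, estimated counts scaled to a common library size after TMM normalization.

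Neutrophils store their weapons in granules that are filled in order during maturation in the bone marrow. Azurophil granules carry Mpo and serine proteases such as Elane, specific granules carry Lcn2, Camp and Ngp, and the cytosol of the mature cell is packed with the S100a8 and S100a9 pair. Transcripts of azurophil enzymes are made in bone marrow precursors and are largely shut off before neutrophils enter the blood. Slpi is a secreted inhibitor of neutrophil elastase and cathepsin G, made by epithelia, macrophages and neutrophils alike. S100a8, S100a9 and Lcn2 can also be made by macrophages and by inflamed epithelium.

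The promoters of the members with enough counts to compare are shown because C/EBP factors are the classic regulators of granule genes. In each line the bases in capitals match TTGCNNAA, a C/EBP-like motif searched on both strands of the 300-base RefSeq windows (build GRCm38.p6) around the annotated start, read 5′ to 3′ along the gene. The windows are chr2:164356458-164356757 (minus strand) for Slpi, chr3:90695672-90695971 (minus strand) for S100a9, chr3:90668821-90669120 (plus strand) for S100a8, chr2:32387690-32387989 (minus strand) for Lcn2 and chr16:48872358-48872657 (plus strand) for Retnlg.
Slpi: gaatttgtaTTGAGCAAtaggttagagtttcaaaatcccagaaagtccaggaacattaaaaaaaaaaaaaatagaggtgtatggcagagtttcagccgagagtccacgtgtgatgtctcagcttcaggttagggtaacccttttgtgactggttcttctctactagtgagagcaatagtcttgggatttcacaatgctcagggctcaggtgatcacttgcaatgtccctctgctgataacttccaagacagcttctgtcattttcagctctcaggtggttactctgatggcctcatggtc
S100a9: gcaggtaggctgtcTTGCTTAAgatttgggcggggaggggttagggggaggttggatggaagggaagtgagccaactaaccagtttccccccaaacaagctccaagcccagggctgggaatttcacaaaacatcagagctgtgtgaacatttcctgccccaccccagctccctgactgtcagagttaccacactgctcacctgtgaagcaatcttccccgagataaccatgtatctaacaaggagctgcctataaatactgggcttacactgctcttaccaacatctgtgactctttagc
S100a8: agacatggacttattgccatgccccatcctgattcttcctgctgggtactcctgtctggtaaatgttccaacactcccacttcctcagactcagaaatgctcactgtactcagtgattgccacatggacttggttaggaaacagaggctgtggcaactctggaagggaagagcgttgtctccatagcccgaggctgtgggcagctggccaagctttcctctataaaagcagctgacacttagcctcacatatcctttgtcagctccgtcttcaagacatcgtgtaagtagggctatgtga
Lcn2: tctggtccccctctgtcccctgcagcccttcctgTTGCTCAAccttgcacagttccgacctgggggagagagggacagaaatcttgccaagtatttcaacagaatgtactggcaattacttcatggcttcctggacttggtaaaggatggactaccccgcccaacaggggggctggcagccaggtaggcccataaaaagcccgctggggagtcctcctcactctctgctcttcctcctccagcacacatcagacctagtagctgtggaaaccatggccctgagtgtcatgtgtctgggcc
Retnlg: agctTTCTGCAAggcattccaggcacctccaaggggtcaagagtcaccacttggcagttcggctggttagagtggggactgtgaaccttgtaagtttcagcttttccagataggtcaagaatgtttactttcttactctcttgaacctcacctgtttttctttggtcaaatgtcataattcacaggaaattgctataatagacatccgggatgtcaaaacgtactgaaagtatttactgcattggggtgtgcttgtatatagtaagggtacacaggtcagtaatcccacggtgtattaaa

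The match began 241 bases before the start in Slpi, 236 bases before it in S100a9, 216 bases in Lcn2 and 246 bases in Retnlg, and S100a8 had none in its window. With Ly6g and Ngp, 6 of the 10 members held a match, against 10.8% of 32851 promoters. A TATA match (TATAAA, both strands) stood in 3 of 10 members against 13.6% of all promoters, and 1 of them lay 30 bases before the start of S100a8. The PU.1-like letters GAGGAAGT were found on either strand in 4 of 10 members (S100a8, Ly6g, Elane and Mpo) against 3.20% of all promoters. An NF-kB-like motif, GGGA and TCC with any 3 bases between them on either strand, was found in 0 of 10 members against 4.59%. A match is a description of letters and not a binding site, and the RefSeq start used here is not the GENCODE start for every gene.

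The levels of the members spanned a wide range. Per kilobase of transcript and averaged over the 10 tumors, Slpi stood at 7.21 ± 2.64 CPM per kb (SD, n = 10), S100a9 at 5.39 ± 2.96 CPM per kb and S100a8 at 3.14 ± 1.63 CPM per kb. Lcn2 followed at 2.27 ± 1.12 CPM per kb and Retnlg, a resistin-like protein of mature neutrophils, at 0.639 ± 0.421 CPM per kb. Slpi was above S100a9 in 9 of 10 tumors, S100a9 above S100a8 in 9, S100a8 above Lcn2 in 8, and Lcn2 above Retnlg in all 10. The means of Slpi and S100a9, of S100a9 and S100a8, and of S100a8 and Lcn2 differed by less than the SD of the higher of the pair, while Retnlg lay apart from Lcn2. Then came Camp, a cathelicidin precursor, at 0.166 ± 0.123 CPM per kb and Mpo, myeloperoxidase, at 0.0867 ± 0.0433 CPM per kb. Camp was above Mpo in only 6 of 10 tumors. Ly6g, Ngp and Elane were at or near 0.

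Ly6g, Ngp, Elane, Camp and Mpo had few counts or none. Ly6g, the surface protein by which mouse neutrophils are sorted, gave 1 count in responder 5, 1 in responder 10, 2 in responder 12 and 0 in the other 7 tumors. Ngp, neutrophilic granule protein, gave 2 counts in non-responder 3, 1 in non-responder 6 and 1 in responder 12. Elane, neutrophil elastase, gave 0 counts in all 10 tumors, which allows a level of up to 0.0127 CPM over the tumors together (3 counts of the summed totals, counting error only). Camp ran from 0 to 8 counts and Mpo from 2 to 10 counts, with responders and non-responders interleaved in both. Pooled over 5 tumors, Ly6g stood at 0.0337 CPM in responders (exact 95% Poisson interval 0.00917 to 0.0862) and at 0 in non-responders (upper bound 0.0312), and with 4 counts in all no fold is given. Mpo overlaps Gm11505 on the opposite strand, and Ly6g belongs to a family of similar genes, so that their few counts may be misassigned. With Ly6g at 4 counts in all, the members are called by their symbols below.

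**Figure D1:**
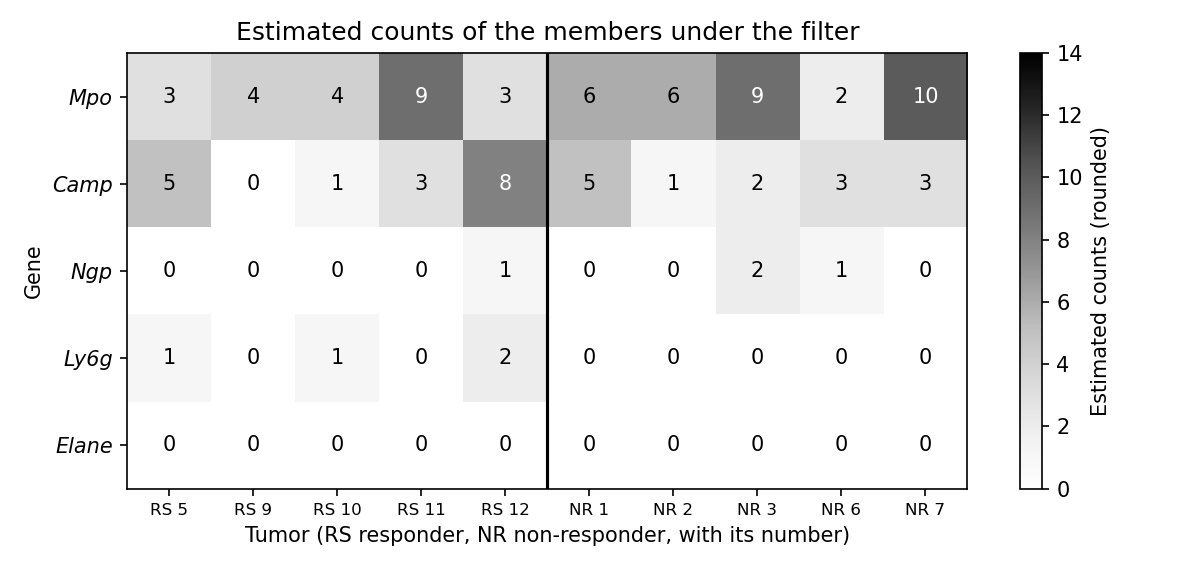
Estimated counts, rounded to whole numbers, of the 5 members under the filter on low counts (vertical axis) in each of the 10 tumors (horizontal axis, RS responders left and NR non-responders right of the line). Elane was 0 throughout, Ly6g had 4 counts in all, and no tumor passed 10 counts of Mpo or 8 of Camp.

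A feature was compared between the groups if it had a CPM above a low minimum in at least 3 tumors, which 5 of the 10 members (S100a8, S100a9, Retnlg, Slpi and Lcn2) and 15767 features in all passed. In edgeR's quasi-likelihood test 0 of 15767 features (0%) had an adjusted p under 0.05. DESeq2 called 1 feature, the collagen gene Col6a2, lower in responders and named here after its value was seen, and limma-voom called 0. At an unadjusted p under 0.05 there were 1294 features, 663 higher in responders (4.20%) and 631 lower (4.0%), and with 1 tumor left out the total ran from 839 (without responder 11) to 2139 (without responder 5). A log2 fold change above 0, that is a higher level in responders, was found for 5 of the 5 members and for 48.6% of all features, whose median log2 fold change was -0.0036. The members were chosen on this contrast, so no p is given for them in it and nothing follows from the count of 5. For all of them, fewer cells of a type and less RNA per cell cannot be told apart in bulk tumor RNA.

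Slpi, the secreted elastase inhibitor, was higher in 4 of the 5 responders than in any non-responder. It lies at chr2:164354070-164389095 on the minus strand (GRCm38, GENCODE vM21), with a transcript of 876 bases. Its level was 4.24 CPM in responder 5, 8.63 in responder 9, 9.72 in responder 10, 9.14 in responder 11 and 7.90 in responder 12. In non-responders it was 6.07 CPM in tumor 1, 5.29 in tumor 2, 4.33 in tumor 3, 3.84 in tumor 6 and 4.03 in tumor 7. Responders 9 to 12 were high and close together, responder 5 lay among the non-responders, and the groups overlapped through that tumor alone. The mean of the responders was 7.92 ± 2.17 CPM (SD, n = 5) against 4.71 ± 0.944 CPM for the other group, with a log2 fold change of 0.74 (SE 0.20). Each value rests on 85 to 281 counts, the most of any member. Without responder 5 the log2 fold change was 0.91, and without responder 10 it was 0.66.

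S100a9 and S100a8, which pair to form the alarmin calprotectin, lie 22596 bases apart on chromosome 3. S100a9 stood at 2.25 CPM in responder 5, 2.19 in responder 9, 4.93 in responder 10, 5.24 in responder 11 and 3.26 in responder 12. In non-responders it was 4.18 CPM in tumor 1, 0.679 in tumor 2, 1.56 in tumor 3, 1.67 in tumor 6 and 1.996 in tumor 7. All 5 responders were above 4 of the non-responders, but non-responder 1 was higher than 3 responders. The means were 3.57 ± 1.45 CPM and 2.02 ± 1.30 CPM (SD, n = 5 each), with a log2 fold change of 0.85 (SE 0.39). Without non-responder 1 the log2 fold change was 1.298. For S100a8 the levels were 0.971 CPM in responder 5, 1.13 in responder 9, 3.06 in responder 10, 2.18 in responder 11 and 1.53 in responder 12. Non-responders had 2.51 CPM of S100a8 in tumor 1, 0.822 in tumor 2, 0.956 in tumor 3, 0.767 in tumor 6 and 1.33 in tumor 7. Responder 10 alone exceeded non-responder 1, and the groups were interleaved below them. The log2 fold change of S100a8 was 0.48 (SE 0.38), which became 0.87 without non-responder 1 and 0.21 without responder 10. The ratio of S100a9 to S100a8 counts was 0.826 in non-responder 2 and 1.5 to 2.40 in the other 9 tumors.

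Retnlg was the scarcest member that could be compared, with 1 to 23 counts in a tumor. It was 0.388 CPM in responder 5, 0.500 in responder 9, 0.395 in responder 10, 0.748 in responder 11 and 0.537 in responder 12. In non-responders it was 0.704 CPM in tumor 1, 0.107 in tumor 2, 0.101 in tumor 3, 0.271 in tumor 6 and 0.0391 in tumor 7. The responders lay above 4 of the 5 non-responders, and non-responder 1 lay above 4 of the 5 responders. Pooled over 5 tumors, the level was 0.530 CPM in responders (exact 95% Poisson interval 0.408 to 0.678) and 0.237 CPM in non-responders (0.157 to 0.342). These intervals cover counting error only, leave out the spread between tumors and are no test of the groups. Of the 28 non-responder counts, 16 came from non-responder 1. Retnlg passed the filter only through the 5 responders and non-responder 1, so its difference is a description. The log2 fold change was 1.11 (SE 0.54), 2.004 without non-responder 1 and 0.82 without non-responder 7.

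Lcn2, lipocalin 2, a carrier that withholds iron from bacteria, showed no ordering by response. Responder 10 had 3.90 CPM and responder 11 had 2.83 CPM, while the other responders lay at 1.48 (tumor 5), 1.13 (tumor 9) and 1.69 CPM (tumor 12). Non-responder 6 had 3.52 CPM, the second highest value of the 10, and the others had 1.85 (tumor 1), 0.715 (tumor 2), 2.01 (tumor 3) and 1.64 CPM (tumor 7). The log2 fold change was 0.20 (SE 0.39), it ran up to 0.53 without non-responder 6, and its sign turned without responder 10 (-0.080) or without non-responder 2 (-0.02).

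**Figure D2:**
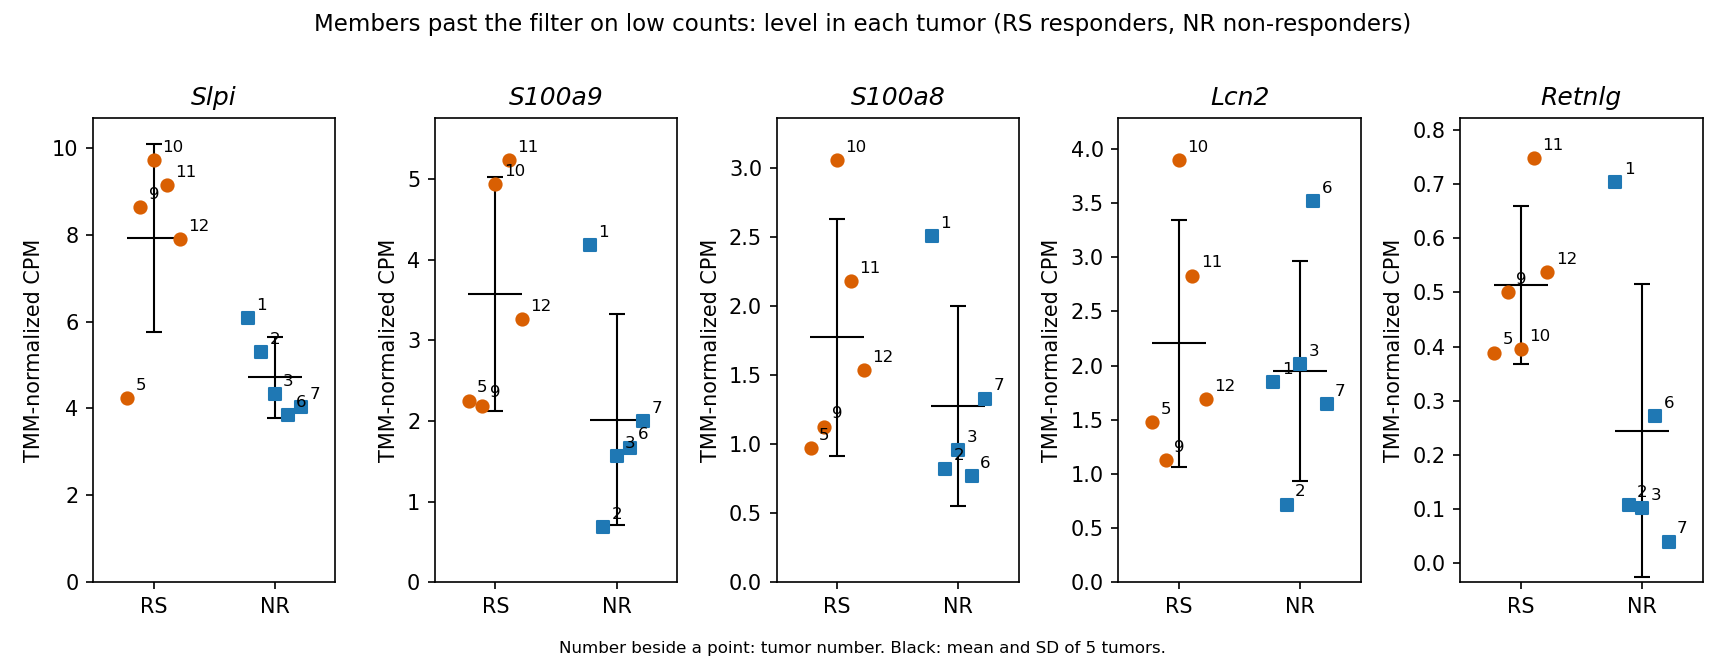
TMM-normalized CPM (vertical axes) of the 5 members past the filter in responders (RS, circles) and non-responders (NR, squares), each point 1 tumor with its number, with the mean and SD of 5 tumors in black. Responder 5 sits among the non-responders for Slpi, and non-responder 1 sits among the responders for S100a9, S100a8 and Retnlg.

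Summed over the 10 members, responders ran from 9.67 CPM in tumor 5 to 22.3 CPM in tumor 10 and non-responders from 7.86 CPM in tumor 2 to 15.8 CPM in tumor 1. Slpi alone made up 37.1% to 67.3% of the member counts of a tumor.

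How the members varied together was asked over all 10 tumors, on log2(CPM + 1), for the 10 pairs of the 5 members. S100a8 and S100a9 had a Pearson's r of 0.896 (permutation p = 0.00025, adjusted p = 0.0025 over the 10 pairs) and a Spearman's rho of 0.879 (permutation adjusted p = 0.0154). Without the 2 tumors farthest from the median of S100a8 (non-responder 1 and responder 10) r was 0.888 (exact permutation p = 0.0026), and on deviations from the group means it was 0.902. The p-values of this pair come from values over both groups, which carry the difference on which the members were chosen, so they are a description. Only the r of 0.902, on the deviations, is free of that difference. By that value the pair varied together within the groups. It also kept its side of the adjusted threshold. The permutation moved the centred values freely across both groups, so that side is a description too. S100a9 and Retnlg followed with r = 0.783 (permutation p = 0.00853, adjusted p = 0.0427) and rho = 0.818 (adjusted permutation p = 0.0320). These values are a description and support nothing, because Retnlg passed the filter through 6 tumors, the 5 responders and non-responder 1, and because r over all tumors carries the difference between the groups on which the members were chosen. On deviations from the group means r was 0.673, without non-responder 2 and responder 11 it was 0.665 (exact permutation p = 0.0747), and with 1 tumor left out it ran from 0.717 to 0.849. The adjusted p lost the threshold on the deviations, and also when any 1 of 6 tumors was left out.

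The passes and failures in this paragraph describe values that carry the difference between the groups on which the members were chosen, and support nothing. Over all 10 tumors Slpi passed the adjusted threshold with none of the other 4, though without responder 9 it passed with S100a8 (r = 0.810). Its r was 0.690 with S100a8, 0.676 with S100a9 and 0.680 with Retnlg, each with an adjusted permutation p of 0.0758 and, for rho (0.721, 0.685 and 0.697), of 0.0705. On deviations from the group means these were 0.669, 0.475 and 0.450. With Lcn2, r was 0.180 (permutation p = 0.614) and rho 0.188. Responder 9 held much Slpi (8.63 CPM) with little S100a9 (2.19 CPM), while non-responder 1 held less Slpi (6.07 CPM) with more S100a9 (4.18 CPM). Lcn2 had an r of 0.482 with S100a8, 0.592 with S100a9 and 0.242 with Retnlg, and S100a8 an r of 0.599 with Retnlg, none past the adjusted threshold over all 10 tumors. Without non-responder 6, Lcn2 passed with S100a8 (r = 0.807) and with S100a9 (r = 0.815). All points of a pair share their library and its depth.

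**Figure D3:**
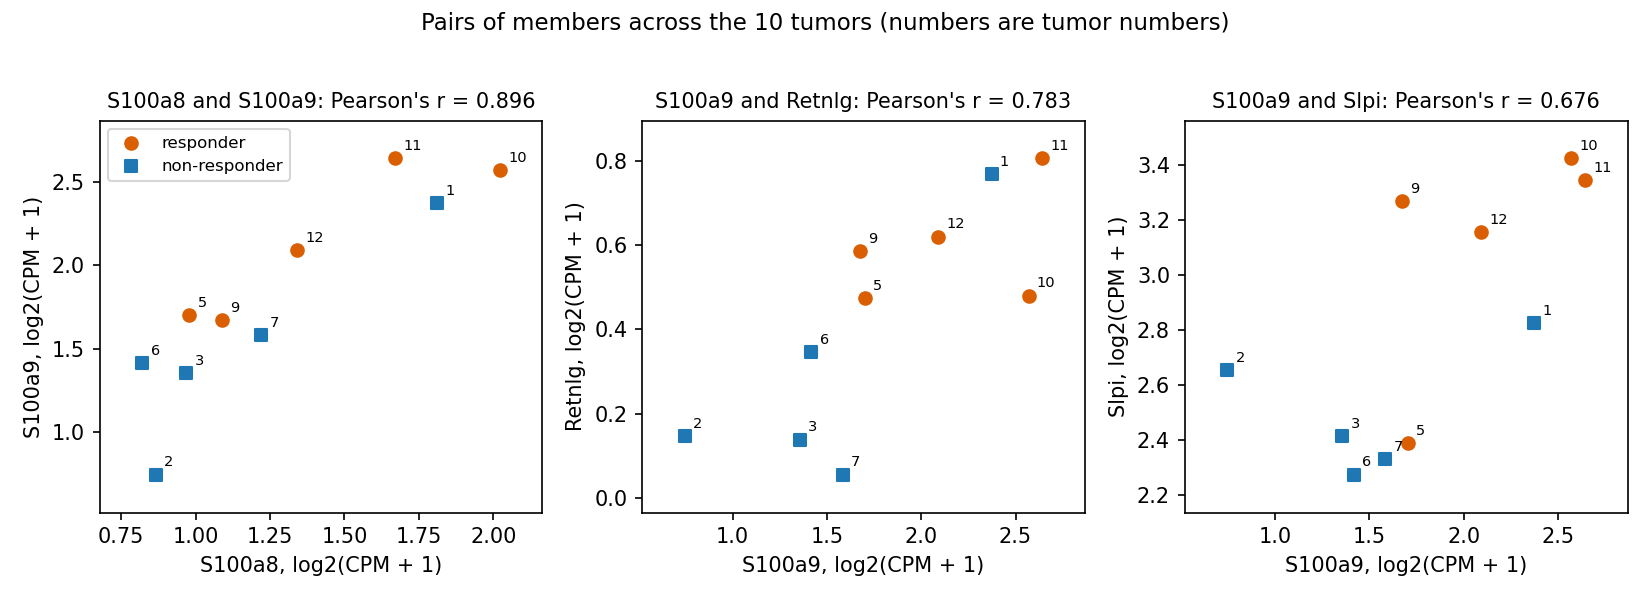
Log2(CPM + 1) of S100a9 against S100a8, Retnlg against S100a9 and Slpi against S100a9 (horizontal axis named second), each point 1 tumor with its number, circles for responders and squares for non-responders. S100a8 and S100a9 lie near 1 line (r = 0.896), while responder 9 lies above the others of like S100a9 in the plot of Slpi.

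The features most like Slpi over the 10 tumors were named among 10973 others with a mean of at least 5 CPM, a minimum that S100a8, S100a9, Retnlg and Lcn2 did not reach. Among the 5 were Mmp13, a collagenase, with an r of 0.961, Kmt5c, a histone methyltransferase, with 0.959, Clec4e, the Mincle receptor of myeloid cells, with 0.955 and Dennd3 with 0.952. Mmp13 stood at 91.6 ± 29.8 CPM in responders against 54.7 ± 18.6 CPM in the non-responder group (SD, n = 5 each) and Clec4e at 12.8 ± 3.57 and 7.47 ± 1.93 CPM. Kmt5c differed far less, with 37.0 ± 2.20 and 34.1 ± 1.68 CPM. For S100a9 the 5 most alike of 10974 were Rarres2, the precursor of the attractant chemerin (r = 0.956), Bscl2 or seipin (0.947), Tfec, a transcription factor of macrophages (0.943), the complement component C3 (0.941) and the proton channel gene Hvcn1 (0.940). No feature was named for both. The highest values out of so many features over 10 tumors are high by selection, and are given with no test.

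Of the rest of the granulocyte program, 4 lists of other neutrophil genes held 57 genes found in the table, of which 41 passed the filter. Of these, 35 had a higher mean in responders and 6 a lower one, with a median log2 fold change of 0.32, beside 48.6% and -0.0036 for all features. At an unadjusted p under 0.05, 11 of the 41 were higher and 0 lower, beside 4.20% and 4.0% of all features, and none had an adjusted p under 0.05. These lists and those below were chosen with earlier results of these data known, so such counts are a description and support nothing. Most of the abundant genes on these lists, such as Lyz2 and S100a6, are also made by macrophages or tumor cells.

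Among other azurophil granule genes, 4 of 7 passed, each with its higher mean in responders (median log2 fold change 0.21). Ctsg, the protease cathepsin G, stood at 3.81 ± 1.62 CPM in responders against 1.62 ± 0.667 CPM in the other tumors (log2 fold change 1.25, SE 0.33, adjusted p = 0.580 in edgeR's test), and was above every non-responder in 4 of 5 responders. Ctsc, which activates these proteases, had a log2 fold change of 0.31 (SE 0.12), and Lyz2, lysozyme, was the most abundant at a mean of 984 CPM. Prtn3, the sister protease of Elane, had 1 to 9 counts, Ms4a3 0 to 2, and Bpi was 0 in all tumors. Cathepsin G was thus measured in tumors where Elane and Bpi were at 0 and Mpo had at most 10 counts. Ctsg is also a known product of connective tissue mast cells, and each of the 6 genes on the mast cell list was higher on average in responders. At an unadjusted p under 0.05 there were 4 of them (Mcpt4, log2 fold change 0.60, Cma1, 0.46, Cpa3, 0.42, and Tpsb2, 0.40), beside 4.20% of all features on that side, and none passed the adjusted threshold. The summed mast cell level was 400 CPM in responder 5, 361 in responder 9, 439 in responder 10, 632 in responder 11 and 517 in responder 12, against 512 in non-responder 1, 302 in non-responder 2, 381 in non-responder 3, 287 in non-responder 6 and 287 in non-responder 7. Tpsab1 was its most abundant gene, at a mean of 169.6 CPM, and no gene of the list was at 0. The part of mast cells in the level of Ctsg was not tested.

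Other specific and gelatinase granule genes had 9 of 14 past the filter, 8 higher and 1 lower, with a median log2 fold change of 0.26. Only Ltb4r1, the leukotriene B4 receptor, had an unadjusted p under 0.05 (log2 fold change 0.66, SE 0.21), and Adam8 was the most abundant at a mean of 260.1 CPM. The collagenase Mmp8 stood at 2.01 ± 1.05 CPM in responders against 1.23 ± 0.578 CPM in the other tumors. Ltf, lactoferrin, the hallmark of specific granules, had only 1 to 7 counts in a tumor. Of 18 receptors and surface genes of neutrophils 13 passed, and all 13 were higher (median log2 fold change 0.40). The 5 with an unadjusted p under 0.05 were Clec4e (0.77, SE 0.22), Clec4d (0.66, SE 0.20), the formyl peptide receptor Fpr2 (0.66, SE 0.21), the G-CSF receptor Csf3r (0.61, SE 0.23) and Cd300lf (0.41, SE 0.10), each given as a log2 fold change. Fpr2 overlaps Fpr3 and Cd300lf overlaps Rab37 in the annotation, so their counts could be shared with those genes. Cxcr2, the chemokine receptor of circulating neutrophils, stood at 3.16 ± 1.0 and 2.30 ± 0.836 CPM, and Cxcr1 had 0 to 4 counts. Fcgr4, an Fc receptor shared with macrophages, was the most abundant at a mean of 47.4 CPM, and Fpr3 and Mrgpra2a were 0 throughout.

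Remaining neutrophil genes split, with 15 of 18 past the filter, 10 higher and 5 lower and a median log2 fold change of 0.12. Hcar2 (log2 fold change 1.12, SE 0.36), Cxcl3 (1.09, SE 0.50) and Mxd1 (0.49, SE 0.17) had an unadjusted p under 0.05, all higher. S100a6 was the most abundant at 748 CPM, and Stfa1 was 0, though the Stfa genes are near copies whose counts may be split. Outside the granulocyte lists proper, attractants and growth factors had 8 of 10 past the filter, 7 higher and 1 lower (median log2 fold change 0.49). Cxcl2, a ligand of Cxcr2, was at 5.41 ± 2.13 and 2.94 ± 1.45 CPM (log2 fold change 0.88, SE 0.33), Cxcl5 was the most abundant at 6.36 CPM, and Csf3, the growth factor G-CSF, had 2 to 26 counts. The 6 granulocyte transcription factors all passed and all had log2 fold changes above 0, with a median of 0.14, beside 48.6% of all features. Cebpa (0.005, SE 0.09), Gfi1 (0.01, SE 0.11) and Spi1 (0.07, SE 0.10) lay within their SE of 0. Cebpb (0.22, SE 0.11), Cebpd and Cebpe (0.40, SE 0.34) lay farther from it. Cebpd had an unadjusted p under 0.05 (0.34, SE 0.14), Cebpb was the most abundant at 112.7 CPM, and Cebpe, the factor of specific granules, stood at 0.405 ± 0.114 and 0.314 ± 0.151 CPM. Of elastase inhibitors and other genes with the WAP domain of Slpi, 8 of 15 passed, all 8 higher (median log2 fold change 0.22). Only Serpina3g had an unadjusted p under 0.05 (log2 fold change 0.63, SE 0.21), Serpinb6a was the most abundant at 224 CPM, and Wfdc5 and Wfdc15b were 0.

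Over these 7 lists, 14 of 63 genes past the filter had an unadjusted p under 0.05, all 14 higher in responders. Of all features, 4.20% were higher and 4.0% lower at that p. The lists were chosen with earlier results of these data known, so the count of 14 is a description and supports nothing. The adjusted p of the 14 genes in edgeR's test ran from 0.580 to 0.607. The count was 29 without non-responder 1 and 26 without responder 5, each including the same 14 genes. Over all features the count of 1294 also grew, to 1534 without non-responder 1 and to 2139 without responder 5.

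**Figure D4:**
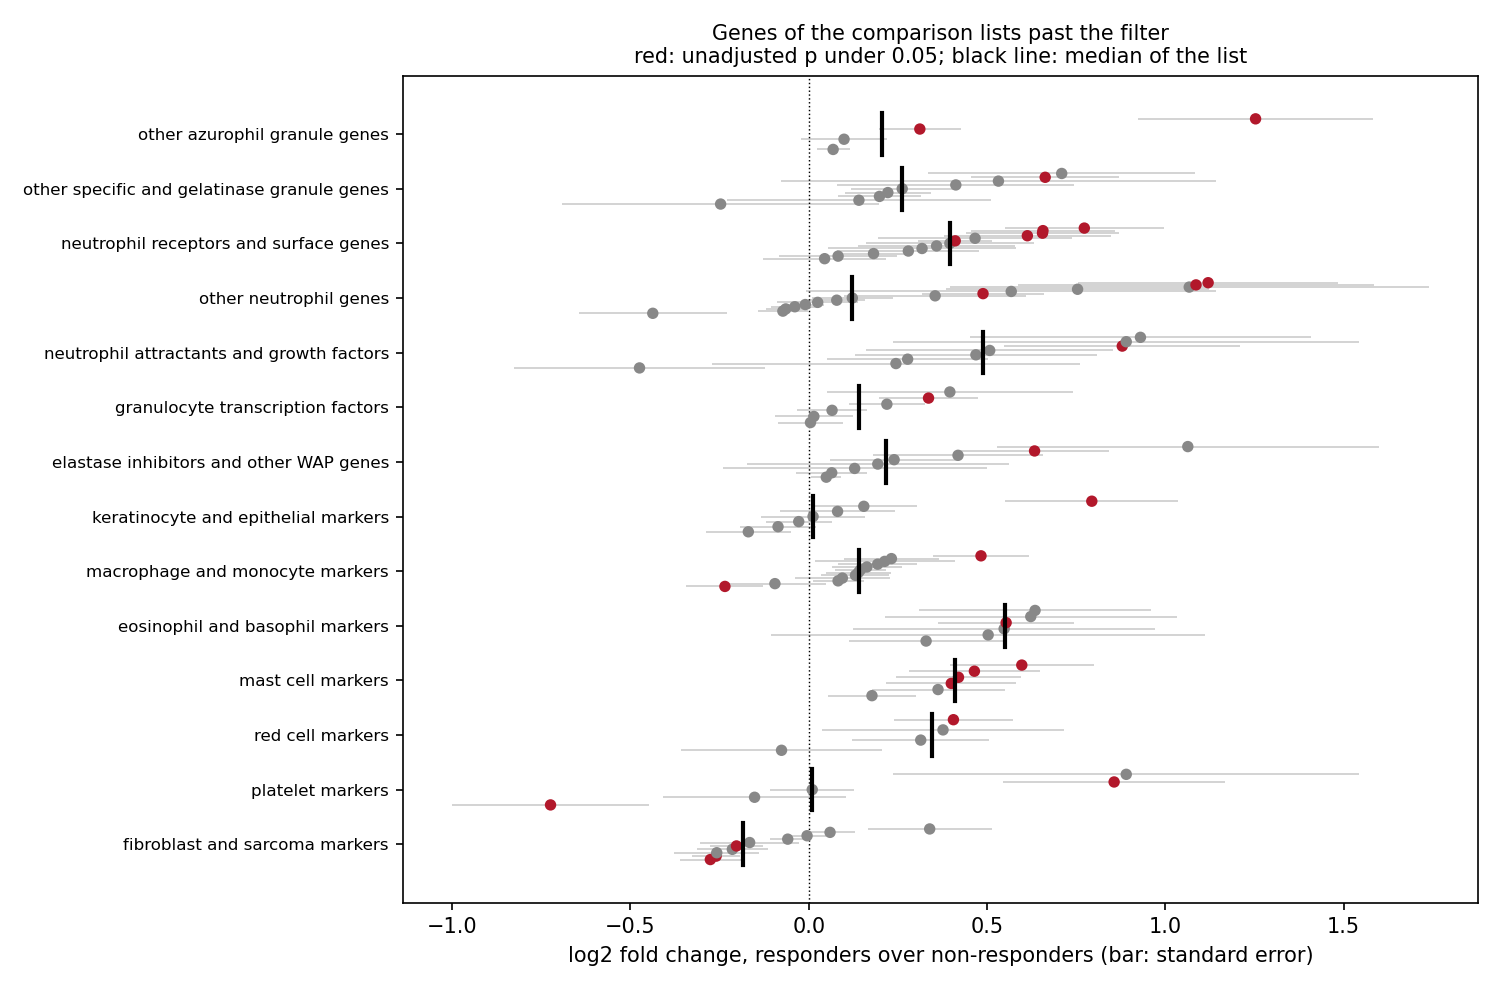
Log2 fold change of responders over non-responders (horizontal axis, bars the standard error) for every gene past the filter of the 14 comparison lists (vertical axis), red at an unadjusted p under 0.05, with the median of each list in black. The 13 receptor and surface genes all lie right of 0, and the fibroblast and sarcoma genes lie mostly left of it.

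Markers of other cells in the tumor are given beside these results. All 12 macrophage and monocyte markers passed, 10 higher and 2 lower in responders (median log2 fold change 0.14), with Ly6c2 (0.48) and Ccr2 (-0.23) at an unadjusted p under 0.05 and C1qa the most abundant at 350 CPM. The summed level of this list was 1557 CPM in responder 5, 1837 in responder 9, 1835 in responder 10, 2086 in responder 11 and 1657 in responder 12. The non-responders had 1917 CPM in tumor 1, 1439 in tumor 2, 1687 in tumor 3, 1589 in tumor 6 and 1511 in tumor 7. The groups overlapped, with responders 5 and 12 below non-responders 1 and 3. The part of macrophages in the levels of Slpi, S100a8 and S100a9 was not tested.

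Of 20 keratinocyte and epithelial markers 7 passed, 4 higher and 3 lower (median log2 fold change 0.01). The markers of skin epithelium were uneven. Krt1 and Sprr1b were 0 in all tumors, Krt5 ran from 0 to 6 counts, Krt14 from 1 to 7 and Krt6a from 0 to 7, whereas Krt10 had 53 to 94 counts, Sfn 37 to 93, Dsp 187 to 397 and Trp63, a transcription factor of basal keratinocytes, 27 to 107. Krt8, at a mean of 179.7 CPM, made up most of the list, whose summed level ran between 197 and 246 CPM in responders and between 196 and 271 CPM in the others. By tumor the sums were 201, 197, 201, 246 and 239 CPM in responders 5, 9, 10, 11 and 12, and 253, 206, 196, 211 and 271 CPM in non-responders 1, 2, 3, 6 and 7. Trp63 had an unadjusted p under 0.05, higher in responders (log2 fold change 0.79, SE 0.24). The part of epithelium in the level of Slpi was not tested.

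**Figure D5:**
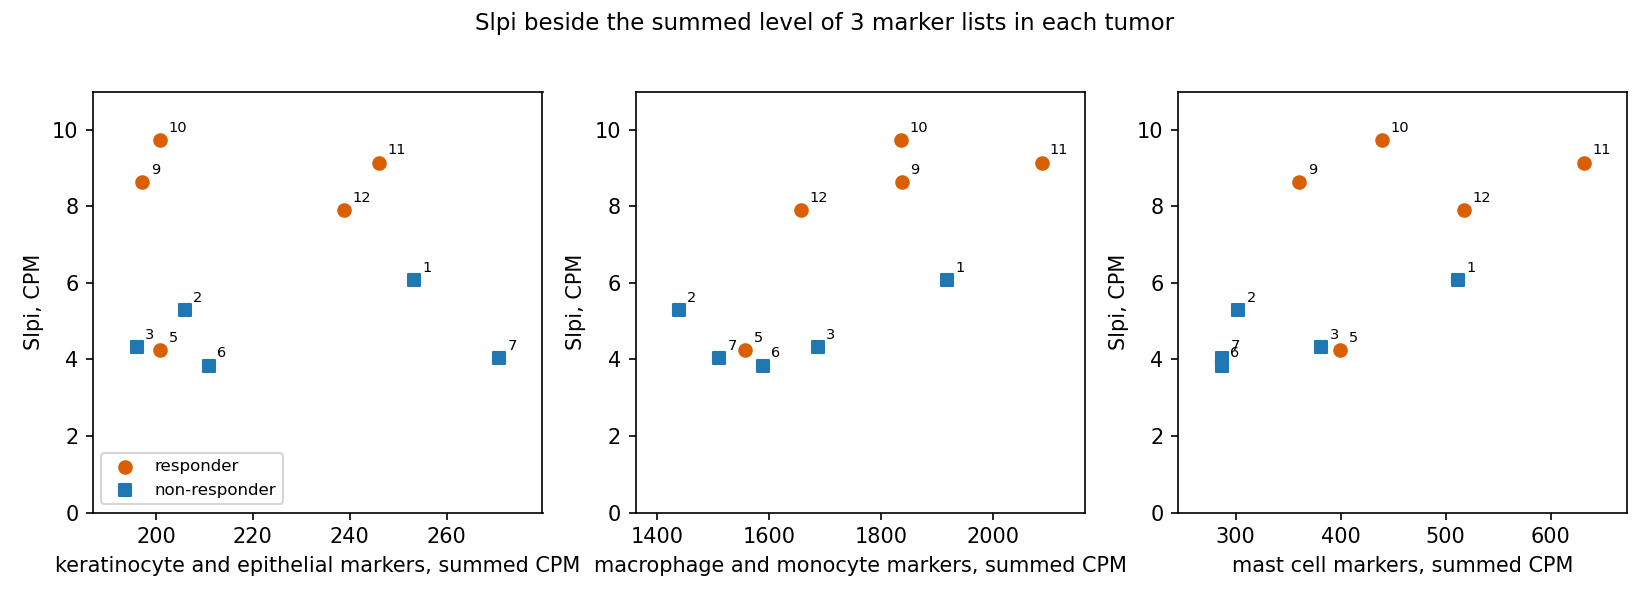
CPM of Slpi (vertical axes) against the summed CPM of the keratinocyte and epithelial, macrophage and monocyte, and mast cell markers (horizontal axes, which do not start at 0), each point 1 tumor with its number, circles for responders and squares for non-responders. Non-responder 7 has the highest epithelial sum (271 CPM) with 4.03 CPM of Slpi, and responder 11 the highest macrophage and mast cell sums with 9.14 CPM. Krt8 makes up most of the epithelial sum, and the part of these cells in the level of Slpi was not tested.

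Eosinophil and basophil markers had 6 of 10 past the filter, all 6 higher (median log2 fold change 0.55), Fcer1a being the most abundant (5.05 CPM) and the only one with an unadjusted p under 0.05 (0.55, SE 0.19), while Ear1 was 0 throughout and Epx had 0 to 1 count. Their summed level was 9.13 to 16.2 CPM in responders against 5.90 to 11.9 CPM in the others, ranges that overlapped. Which cells made the genes of this list, mast cells included, was not tested. Red cell markers had 4 of 6 past the filter, 3 higher and 1 lower (median 0.35), with Hba-a2 the most abundant at 10.8 CPM and Hba-a1 (0.41) at an unadjusted p under 0.05, 2 near copies. The red cell sum ran from 17.1 to 28.7 CPM in responders against 14.1 to 26.2 CPM in the others, ranges that overlapped. Platelet markers had 5 of 6 past the filter, 3 higher and 2 lower (median 0.01), with Pf4, the most abundant at 31.5 CPM and also made by macrophages, higher (0.86, SE 0.31) and Gp1bb lower (-0.72, SE 0.28), both at an unadjusted p under 0.05, and a sum of 28.6 to 68.1 CPM against 25.5 to 54.8 CPM. Fibroblast and sarcoma markers, led by Vim at 4764 CPM, all passed, 2 higher and 8 lower (median -0.18), with Col1a1 (-0.28), Col5a1 (-0.26) and Col3a1 (-0.20) at an unadjusted p under 0.05 and a sum of 11830 to 12800 CPM against 12010 to 13940 CPM. The part of any of these lists in the levels of the members was not tested.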

How the data were processed

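RNA of 10 removed tumor pieces was measured, 1 per mouse, 5 responders and 5 non-responders. Estimated counts per gene were made by the authors with Kallisto and tximport (build GRCm38 in the submitters' processing notes, mm10 in the study's methods) and deposited without normalization; the annotation release is not given in the sources used here. Of 36009 rows, 9580 have no gene name (1.31% of counts) and 44 names repeat. Rows of 1 name were summed, nameless rows kept, and values rounded to whole numbers. Estimated counts carry an assignment error among near copies that was not measured here. No 2 tumors agreed within sampling noise (lowest chi-square per gene 5.14 over 45 pairs). The biological coefficient of variation was 10.4%.

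Features that exceeded a CPM of 0.366 in 3 or more tumors, a filter the study's methods give for another set of its tumors, were tested with edgeR 4.0.16 (quasi-likelihood, TMM, Benjamini-Hochberg, threshold 0.05) in R 4.3.3, and the steps were tested on simulated data. DESeq2 1.42.0, limma 3.58.1, other scalings and filters, and leaving out each tumor were alternatives. p-values measure the spread between tumors of 1 experiment. The SE was taken as the log2 fold change divided by edgeR's root F. Correlations used 100000 resamples, two-sided (Python 3.11.15, scipy 1.17.1), exact over 8 tumors. Coordinates and transcript lengths are from GENCODE vM21 on GRCm38, promoters from RefSeq (GRCm38.p6, all 10 members matched). Named are the members, each list's most abundant gene, those with an unadjusted p under 0.05, and the 5 features most like Slpi and S100a9, of which 1 is not reported here. Other list genes were named after their values were seen. The members and lists were chosen with earlier results of these data known, and BC100530 and Hbb-bs were not matched.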

Additional observations from a re-analysis of the deposited data

Results flagged for a closer look

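In responder 5, Slpi had a log2(CPM + 1) of 2.39, against 3.15 to 3.42 in the other 4 responders. The gap to the nearest of them was 0.741 of the range of the group, above the critical value of 0.71 for 5 tumors. It was the 1 value standing apart among 42 group values of 21 measures. Chance gives about 1 in 20 of the values tested, so 1 among 42 is no more than chance gives. Slpi was chosen by how responders stood against non-responders in these same tumors, so the critical value decides nothing and the gap is a description.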

How the results depend on the processing

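The count of features with an adjusted p under 0.05 was 0 with edgeR, 1 with DESeq2 and 0 to 9 when a tumor was left out (9 without responder 5). The genes of the 7 granulocyte, attractant and inhibitor lists at an unadjusted p under 0.05 numbered 14, and 11 to 29 with a tumor left out. Without non-responder 1 they were 29 and without responder 5 they were 26, while the count over all features, 1294, became 1534 and 2139 and ran from 839 to 2139. The log2 fold change of Retnlg was 1.11, 1.58 with limma-voom and 0.82 to 2.004 with a tumor left out, and it has no value under edgeR's filterByExpr, which removes the gene. That of Lcn2 was 0.20, with a range of -0.080 to 0.53 and a turned sign without responder 10 (-0.080) and without non-responder 2 (-0.02). S100a8 (0.21 to 0.87), S100a9 (0.61 to 1.298) and Slpi (0.66 to 0.91) kept their sign in all. The correlation of Slpi with Lcn2 was 0.180, and -0.112 to 0.461 with a tumor left out, turning without responder 10 (-0.112). Of 40 correlations under other pseudocounts, scaling or group centring, 38 kept their side of the threshold and 2, both of S100a9 with Retnlg, did not. With a tumor left out, 90 of 100 kept it, 6 lost it, all of S100a9 with Retnlg, 3 gained it (S100a8 with Slpi, and Lcn2 with S100a8 and S100a9) and 1 turned its sign. The cause was not tested. Without group centring these r values carry the difference between the groups, so their side of the threshold is a description. With group centring the values were permuted freely across both groups, so that side is a description as well. No paired analysis was possible because the tumor numbers are unique across the groups. Members of a few counts limit what could be compared. At 1 to 23 counts Retnlg moves with single reads. Ly6g, Ngp, Elane, Camp and Mpo did not pass the filter, so no log2 fold change was fitted for them.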
